A study of Mus musculus with 12 samples.

Results

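Smooth muscle actin and 8 other genes of the contractile apparatus were followed across 6 groups of mouse cells, to ask whether a neural stem cell line derived from limb carries a contractile programme or smooth muscle actin alone. The members were all probes annotated to Acta2, Actg2, Tagln, Cnn1, Cnn2, Cnn3, Tpm1, Tpm2 and Myl9. The array named 14 probes for 8 of these 9 genes and none for Myl9, and 7 of the 9 were among the 10144 genes tested. Peripheral neural stem cells (pNSCs) are lines that resemble brain neural stem cells but come from peripheral tissue. The groups, of 2 arrays each, were elpNSCs-late and elpNSCs-early (pNSCs of embryonic limb), alpNSCs-late and alpNSCs-early (pNSCs of adult lung), Control-NSC (brain neural stem cells) and Fibroblasts. All 12 arrays carry the same strain label, a mixture of C57BL/6, CD1 and C3H. The labels give neither an agent nor the passages behind early and late. The study grew limb and lung starting cells in a serum medium used for fibroblasts, treated them at low pH, and grew pNSCs in a neural stem cell medium with EGF and bFGF. It also derived limb and adult lung lines without low-pH treatment, and the labels do not name the kind. In the study, arrays in 2 replicates set limb and lung cells against brain neural stem cells and fibroblasts for the kind made after low-pH treatment. The present groups have that layout, so they are probably of that kind. The study picked single clusters, so a line can stem from few cells. Its methods call the arrays biological replicates, but no source used here ties them to separate cultures or animals, so the spread behind each p-value is that between the 2 arrays of a group and may be technical.

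Acta2 encodes smooth muscle α-actin, the thin filament actin of vascular smooth muscle, pericytes and myofibroblasts. It is also read as a mark of activated fibroblasts. Actg2 encodes the enteric smooth muscle actin. Tagln (transgelin, or SM22α), the calponins Cnn1, Cnn2 and Cnn3 and the tropomyosins Tpm1 and Tpm2 bind actin filaments, and Myl9 is the regulatory light chain that myosin light chain kinase phosphorylates. Cnn1 is the calponin of differentiated smooth muscle, whereas Cnn2 and Cnn3 are found in many cell types. Many of these genes are driven by serum response factor (SRF) with myocardin or the actin-sensing MRTF coactivators, through CArG boxes near their start sites.

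The sequences below are the 250 bases before the start of 4 members with different behaviour in these arrays, shown because the CArG box is the element that the contractile genes are known to share. They come from RefSeq, build GRCm38.p6, at chr19:34255374-34255623 (minus strand) for Acta2, chr10:79988350-79988599 (plus strand) for Cnn2, chr9:67049214-67049463 (minus strand) for Tpm1 and chr3:121426291-121426540 (plus strand) for Cnn3. Capitals mark a CArG box (CC, 6 bases of A or T, then GG) or the same box with 1 C or G among the 6, a pattern that reads alike on both strands.
Acta2: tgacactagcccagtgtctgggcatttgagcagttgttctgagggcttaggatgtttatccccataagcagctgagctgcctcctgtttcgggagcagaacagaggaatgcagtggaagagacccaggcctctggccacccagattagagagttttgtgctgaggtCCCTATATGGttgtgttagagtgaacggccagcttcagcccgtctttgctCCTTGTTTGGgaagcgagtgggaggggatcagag
Cnn2: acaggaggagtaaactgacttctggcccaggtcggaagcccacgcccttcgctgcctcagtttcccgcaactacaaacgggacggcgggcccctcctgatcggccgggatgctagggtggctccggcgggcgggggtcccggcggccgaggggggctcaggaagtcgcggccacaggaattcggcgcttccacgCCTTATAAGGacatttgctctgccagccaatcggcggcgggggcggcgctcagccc
Tpm1: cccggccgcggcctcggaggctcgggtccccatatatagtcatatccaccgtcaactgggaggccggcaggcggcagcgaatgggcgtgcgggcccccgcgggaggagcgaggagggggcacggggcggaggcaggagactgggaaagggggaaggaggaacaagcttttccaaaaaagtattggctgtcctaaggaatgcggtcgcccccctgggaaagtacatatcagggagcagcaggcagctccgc
Cnn3: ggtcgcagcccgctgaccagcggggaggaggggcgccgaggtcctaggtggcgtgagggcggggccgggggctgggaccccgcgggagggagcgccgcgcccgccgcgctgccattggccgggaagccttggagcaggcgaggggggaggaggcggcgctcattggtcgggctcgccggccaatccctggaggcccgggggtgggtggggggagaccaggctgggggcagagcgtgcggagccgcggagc

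Of the 9 members, 7 had an entry in the promoter table. Acta2 held no full box and 2 boxes with 1 C or G in the centre, CCCTATATGG at 84 to 75 bases and CCTTGTTTGG at 34 to 25 bases before the start. Cnn2 held 1 full box, CCTTATAAGG, at 56 to 47 bases. Myl9 held 1 full box at 161 to 152 bases and 1 changed box at 99 to 90 bases, and no box was found in the windows of Cnn1, Cnn3, Tpm1 and Tpm2. A full box lay in 1.47% and a changed box in 7.24% of all 32851 promoters. A match is a description of these letters, and binding was not measured here.

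Acta2 was selected on its level in the limb line, so its values are a description with no test. The brightest of its 4 probes (ILMN_2693895, on chromosome 19), the one that entered the fit, gave raw intensities of 690.5 and 888.8 in elpNSCs-late and 287.6 and 347.2 in elpNSCs-early. In the lung line it gave 105.8 and 102.7 in alpNSCs-late and 108.1 and 108.5 in alpNSCs-early, beside 132.4 and 126.5 in Control-NSC and 4294.0 and 5225.9 in Fibroblasts. The 4 limb arrays thus lay above every lung and Control-NSC array and below both Fibroblasts arrays, with no overlap. A probe counts as above background on an array when its detection p-value, which sets it against the negative control beads, is under 0.05. By that measure the probe was detected on all 4 limb arrays, both Control-NSC arrays, both Fibroblasts arrays and 1 of the 4 lung arrays, which was an alpNSCs-early array.

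On the normalized log2 scale used from here on, Acta2 averaged 9.23 ± 0.074 in elpNSCs-late and 8.14 ± 0.076 in elpNSCs-early (SD, n = 2 arrays here and throughout). It averaged 4.49 ± 0.029 in alpNSCs-late and 4.81 ± 0.10 in alpNSCs-early, beside 5.49 ± 0.15 in Control-NSC and 12.13 ± 0.058 in Fibroblasts. From high to low the order was Fibroblasts, elpNSCs-late, elpNSCs-early, Control-NSC, alpNSCs-early and alpNSCs-late. Neighbours in that order did not overlap, but the lung values lay at background, where levels have no firm order. The late limb group was 13.4-fold and the early limb group 6.25-fold above Control-NSC. Late limb cells exceeded late lung cells at least 22.7-fold, where the lung arrays give only a bound, and early limb cells exceeded early lung cells 10.1-fold with 1 lung array detected. Within the limb line, elpNSCs-late was 2.14-fold above elpNSCs-early. Against Fibroblasts, the level was 7.44-fold lower in elpNSCs-late and 15.9-fold lower in elpNSCs-early, and 99.5-fold lower in Control-NSC. In bulk RNA such a level cannot tell few cells with much of a transcript apart from many cells with little.

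**Figure D1:**
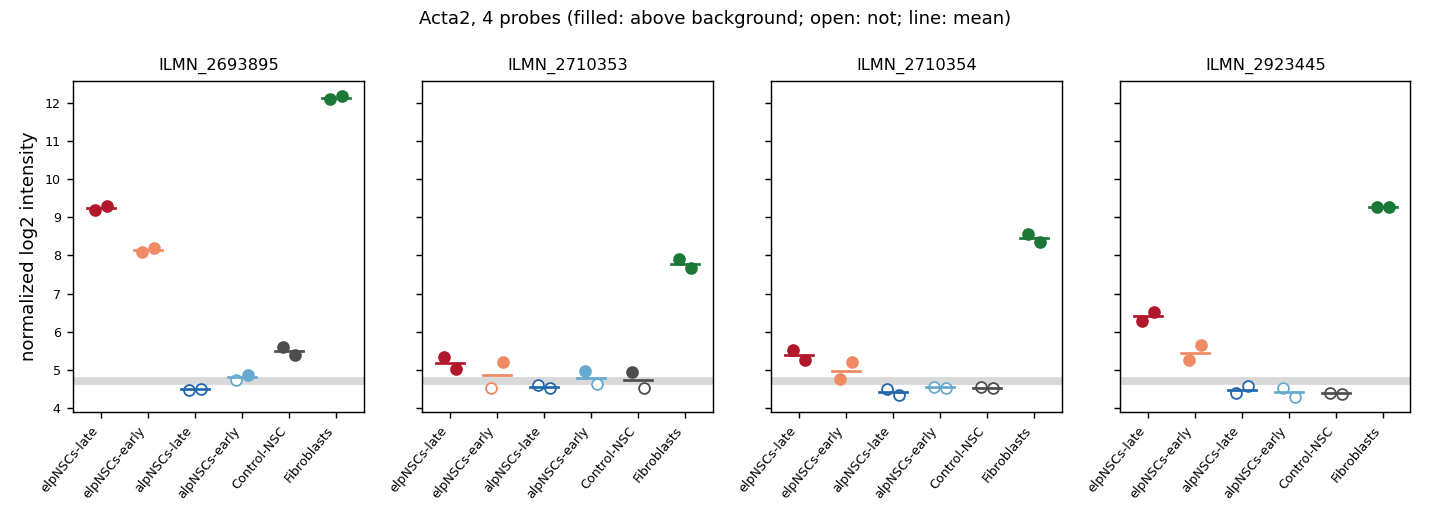
Normalized log2 intensity (vertical axis) of the 4 Acta2 probes on each array of the 6 groups. Filled points are arrays above background, open points are not, short lines are group means and the grey band spans the lowest detected signal of the 12 arrays. The limb groups lie between the other neural stem cells and Fibroblasts for ILMN_2693895 (9.23 in elpNSCs-late, 8.14 in elpNSCs-early) and ILMN_2923445 (6.40 and 5.45), while ILMN_2710353 and ILMN_2710354 are dim in all neural stem cells.

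On the other 3 Acta2 probes, the mean was also highest in Fibroblasts, next in elpNSCs-late and then in elpNSCs-early, while the order of the lung and Control-NSC groups, at or near background, varied between probes. ILMN_2923445 averaged 6.40 ± 0.16 in elpNSCs-late and 5.45 ± 0.28 in elpNSCs-early, both detected on both arrays, against 9.27 ± 0.0066 in Fibroblasts, and it was not above background on any lung or Control-NSC array. It placed elpNSCs-late at least 3.13-fold above Control-NSC and 1.93-fold above elpNSCs-early. ILMN_2710354 averaged 5.39 ± 0.18 in elpNSCs-late and 4.98 ± 0.31 in elpNSCs-early, again detected on all limb arrays and on no lung or Control-NSC array. That probe placed elpNSCs-late at least 1.56-fold above Control-NSC and 1.33-fold above elpNSCs-early. ILMN_2710353 was the weakest, with 5.18 ± 0.23 in elpNSCs-late, detected on both arrays, and 4.88 ± 0.47 in elpNSCs-early, detected on 1. That probe was also detected on 1 alpNSCs-early and 1 Control-NSC array, and its early limb arrays overlapped with those groups. Its late limb mean was only 1.36-fold above Control-NSC and 1.24-fold above elpNSCs-early. Against Fibroblasts the 4 probes gave similar distances for the late limb group, between 6.08-fold and 8.36-fold lower. With a detection p-value under 0.01 instead, all 4 probes stayed detected on both elpNSCs-late arrays.

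Actg2, the other smooth muscle actin, was not above background on any limb array. Its log2 levels were 4.39 and 4.48 in elpNSCs-late and 4.29 and 4.23 in elpNSCs-early, beside 4.32 and 4.20 in Control-NSC and 6.14 and 5.81 in Fibroblasts. Only the Fibroblasts arrays stood out. Tagln behaved likewise, with 4.42 and 4.42 in elpNSCs-late and 4.28 and 4.27 in elpNSCs-early, beside 4.26 and 4.24 in Control-NSC and 5.40 and 4.97 in Fibroblasts. No limb array was above background, and even the Fibroblasts arrays were dim. Cnn1 was detected on none of the 12 arrays, Fibroblasts included, with group means of 4.31 in elpNSCs-late, 4.43 in elpNSCs-early, 4.30 in Control-NSC and 4.33 in Fibroblasts, and so was not tested.

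Tpm2, β-tropomyosin, had 3 probes, of which 1 was bright. That probe gave 4.26 and 4.27 in elpNSCs-late and 4.38 and 4.30 in elpNSCs-early, beside 4.28 and 4.21 in Control-NSC and 10.78 and 10.66 in Fibroblasts. All 10 neural stem cell arrays lay at background and both Fibroblasts arrays far above it. A second Tpm2 probe was detected only in Fibroblasts, at 5.07 ± 0.016, and the third was detected nowhere.

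The remaining members were present in every group. Cnn2 gave 5.52 and 5.52 in elpNSCs-late and 5.55 and 4.96 in elpNSCs-early, beside 5.70 and 6.15 in Control-NSC and 8.60 and 8.34 in Fibroblasts. Its lung levels were 6.01 and 5.78 in alpNSCs-late and 5.12 and 5.44 in alpNSCs-early, so both Fibroblasts arrays lay above all others. The Control-NSC and alpNSCs-late arrays overlapped with each other and lay above those of the limb groups and alpNSCs-early. A second Cnn2 probe was detected in Fibroblasts alone, at 6.67 ± 0.081. Cnn3 averaged 10.25 ± 0.019 in elpNSCs-late and 10.32 ± 0.27 in elpNSCs-early, beside 10.28 ± 0.33 in Control-NSC and 10.20 ± 0.21 in Fibroblasts. Its lung means were 10.26 ± 0.42 in alpNSCs-late and 10.63 ± 0.40 in alpNSCs-early. The ranges of the groups overlapped, except that both alpNSCs-early arrays lay above both elpNSCs-late arrays. Tpm1, α-tropomyosin, averaged 9.75 ± 0.0099 in elpNSCs-late and 9.83 ± 0.23 in elpNSCs-early, beside 9.62 ± 0.091 in Control-NSC and 12.25 ± 0.017 in Fibroblasts. The lung means of Tpm1 were 9.71 ± 0.022 in alpNSCs-late and 9.75 ± 0.0072 in alpNSCs-early.

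**Figure D2:**
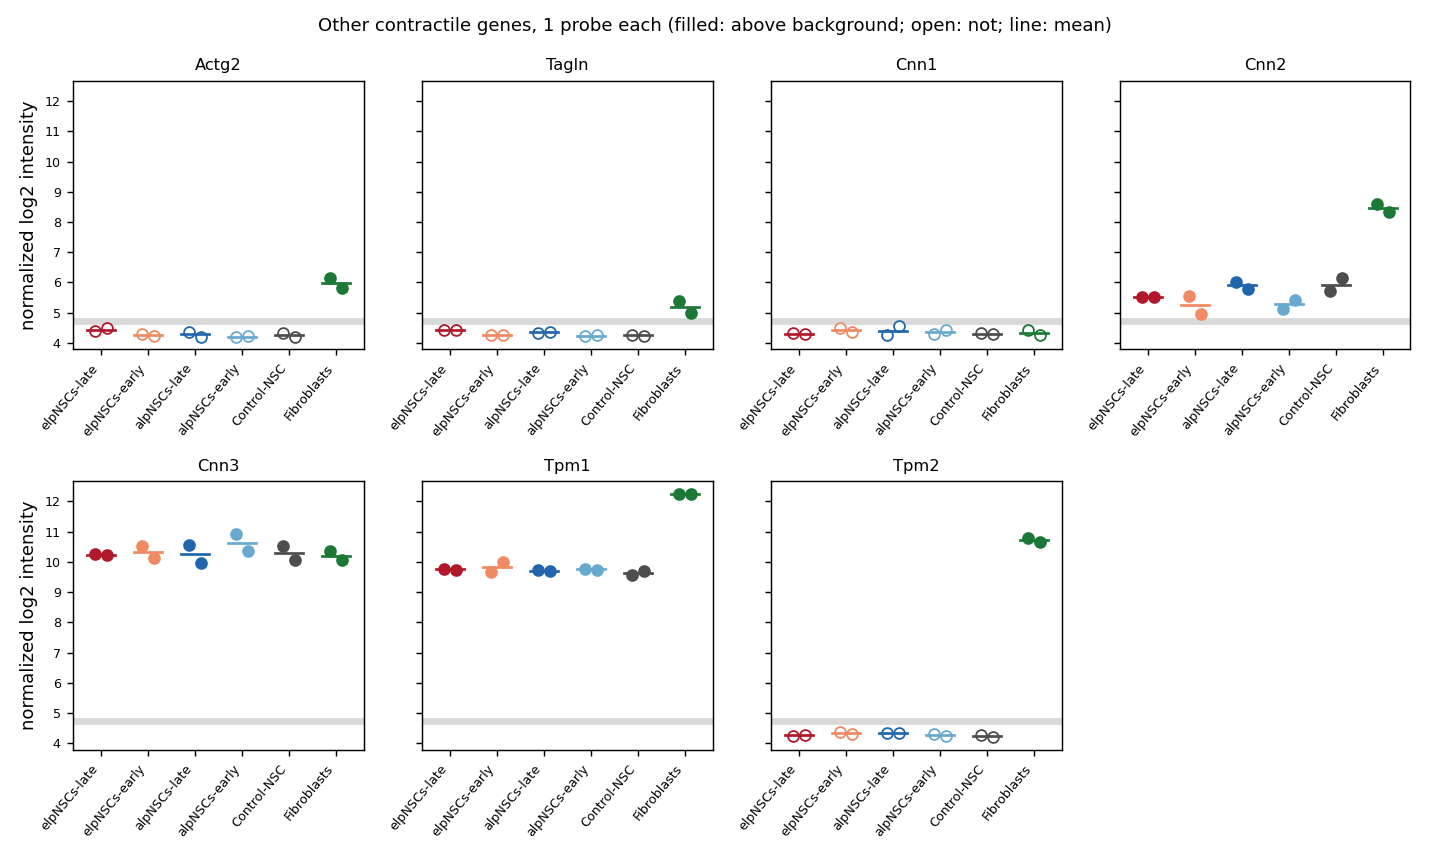
Normalized log2 intensity (vertical axis) of the other 7 members with a probe, on each array of the 6 groups, using the probe of the fit (for Cnn1, its only probe). Filled points are above background, open points are not, lines are group means and the grey band is the lowest detected signal. Actg2, Tagln and Tpm2 are above background in Fibroblasts alone, Cnn1 nowhere, and Cnn2, Cnn3 and Tpm1 on all 12 arrays.

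Against Control-NSC, none of the 6 tested members other than Acta2 was called higher in the limb line. Of these 6, Actg2, Tagln and Tpm2 were at background on all 10 neural stem cell arrays, so between neural stem cell groups the test bears on Cnn2, Cnn3 and Tpm1 alone, and a count of 6 is not comparable with the share of all genes. In elpNSCs-late, 0 of 6 passed limma's moderated test at an adjusted p under 0.05 (Benjamini-Hochberg over all 10144 genes), where 15.3% of all genes did. In elpNSCs-early 1 of 6 passed, against 26.1% of all genes. That gene was Cnn2, which was lower by a log2 difference of -0.67 ± 0.21 (SE), with a limma adjusted p of 0.031. Cnn2 was similarly lower in alpNSCs-early than in Control-NSC (-0.65 ± 0.21, adjusted p = 0.049), where 1 of 6 members and 18.2% of genes passed, and in alpNSCs-late 0 of 6 and 12.4% passed. Without elpNSCs-early replicate 2 the limb difference of Cnn2 was -0.37 (adjusted p = 0.21), and without Control-NSC replicate 2 it was -0.45 (adjusted p = 0.25). Without Control-NSC replicate 2 the early lung difference was -0.42 (adjusted p = 0.34), and without alpNSCs-early replicate 1 it was -0.49 (adjusted p = 0.27). The early lung call was lost on leaving out any 1 of 9 of the 12 arrays, and held without either elpNSCs-early array or Control-NSC replicate 1. The second Cnn2 probe, at background in all neural stem cells, had limb differences of -0.04 in the early and -0.08 in the late group.

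For the members detected on all 12 arrays, the intervals bound the limb differences. For elpNSCs-late minus Control-NSC, Tpm1 differed by 0.13 (95% interval -0.14 to 0.40), Cnn3 by -0.03 (-0.56 to 0.49) and Cnn2 by -0.41 (-0.86 to 0.05). For elpNSCs-early minus Control-NSC, Tpm1 differed by 0.21 (-0.065 to 0.48) and Cnn3 by 0.04 (-0.48 to 0.57). The Acta2 difference in the same comparisons was 3.74 in the late and 2.64 in the early group. Limb and lung pNSCs of the same stage gave 0 of 6 members, where 10.9% of all genes passed late and 12.5% passed early. For elpNSCs-late minus alpNSCs-late, the Acta2 difference was 4.74, and those of the members detected on all arrays were -0.38 for Cnn2 (adjusted p = 0.33), -0.02 for Cnn3 (adjusted p = 0.98) and 0.04 for Tpm1 (adjusted p = 0.92).

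From early to late, 0 of 6 members passed in the limb line, where 23.8% of all genes did, and 0 of 6 in the lung line, where 4.83% did. The limb differences (elpNSCs-late minus elpNSCs-early) were 0.27 for Cnn2 (adjusted p = 0.41), -0.08 for Tpm1 (adjusted p = 0.72) and -0.08 for Cnn3 (adjusted p = 0.86), beside 1.10 for Acta2. The test of whether the late minus early change differed between the lines was passed by 5.66% of genes and by 0 of 6 members.

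**Figure D3:**
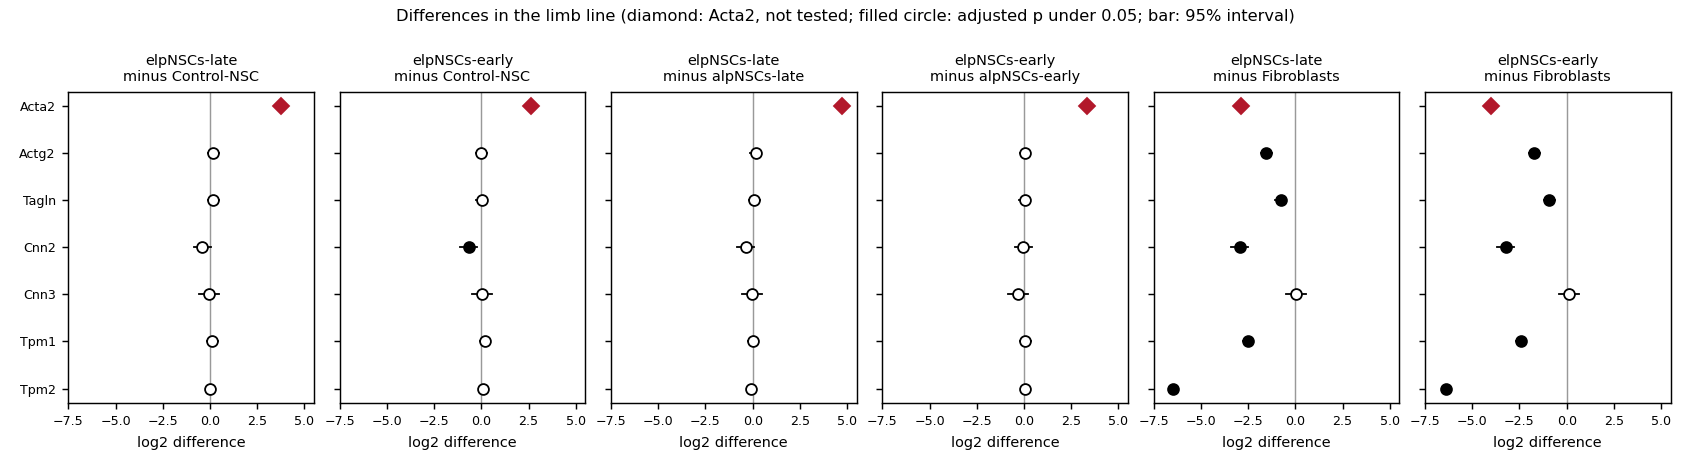
Log2 differences (horizontal axis) of the 7 members in the fit for the late and early limb groups against Control-NSC, lung pNSCs of the same stage, and Fibroblasts. Bars are 95% intervals, filled circles have an adjusted p under 0.05, and the diamond is Acta2, which was not tested. Acta2 lies at 3.74 and 2.64 against Control-NSC while the other members lie near 0, of which Actg2, Tagln and Tpm2 are at background there, apart from Cnn2 at -0.67 in elpNSCs-early.

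Against Fibroblasts, Actg2, Tagln, Cnn2, Tpm1 and Tpm2 were lower in all 5 neural stem cell groups and Cnn3 was not called in any. The share of all genes that passed was 63.0% for elpNSCs-late, 59.1% for elpNSCs-early, 62.1% for alpNSCs-late, 60.6% for alpNSCs-early and 61.9% for Control-NSC, so that a called gene was the rule. Actg2, Tagln and Tpm2 entered the fit only because the Fibroblasts arrays detected them, so they had to differ there and their calls carry no weight as a group. The median of all genes in these comparisons lay 0.11 to 0.13 above 0. Tpm1 was lower by 2.50 ± 0.12 in elpNSCs-late (adjusted p = 2.3e-09, 5.64-fold) and by 2.42 ± 0.12 in elpNSCs-early (adjusted p = 3.6e-09, 5.35-fold), against 6.16-fold in Control-NSC. Cnn2 was 7.73-fold lower in elpNSCs-late (adjusted p = 6.6e-08) and 9.30-fold lower in elpNSCs-early (adjusted p = 3.2e-08), against 5.84-fold in Control-NSC. As a description, the Tpm2 level was at least 64.0-fold lower in elpNSCs-late and 65.2-fold or more lower in elpNSCs-early, beside 7.44-fold and 15.9-fold for Acta2.

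The reach of the dim probes was shorter. Actg2 can be called only at least 2.38-fold lower in elpNSCs-late than in Fibroblasts and Tagln only at least 1.38-fold lower, because their Fibroblasts signals were close to background. A fall as large as that of Acta2 would therefore have left both below detection, and their limb levels are bounds. The Tpm2 probe had the room to show a level 7.44-fold below Fibroblasts, and its limb arrays were at background. Cnn1, undetected even in Fibroblasts, and Myl9, with no probe named, say nothing on this point.

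The wider contractile apparatus was described with lists of genes outside the members. Of 30 smooth muscle apparatus genes, 24 had a probe and 16 were tested. Against Control-NSC, 3 were higher and 3 lower in elpNSCs-late, and 1 was higher and 1 lower in elpNSCs-early, where 15.3% of all genes were called late and 26.1% early. The median difference of the 16 was 0.02 late and -0.09 early, beside 0.01 for all genes in both comparisons. Against lung pNSCs, 5 were higher and 3 lower late, where 10.9% of all genes were called, and 3 were higher and 2 lower early, where 12.5% were. Csrp1, a LIM protein of actin bundles, was at 5.91 and 5.74 in elpNSCs-late and 7.26 and 7.58 in elpNSCs-early, with both Control-NSC arrays at background. It was at least 2.10-fold higher than Control-NSC late (adjusted p = 4.0e-05) and at least 6.33-fold higher early (adjusted p = 1.6e-08). Csrp1 was 3.01-fold lower in elpNSCs-late than in elpNSCs-early (adjusted p = 7.2e-06), whereas Acta2 was higher late. The lung line ran alike, with Csrp1 2.46-fold lower in alpNSCs-late than in alpNSCs-early (adjusted p = 7.2e-05) and at least 3.45-fold higher in alpNSCs-early than in Control-NSC (adjusted p = 5.3e-07).

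Pdlim3, a PDZ and LIM protein that binds α-actinin in muscle, was at 6.18 and 6.07 in elpNSCs-late and 5.61 and 5.38 in elpNSCs-early, against 5.42 and 5.33 in Control-NSC. It was not above background in alpNSCs-late or Fibroblasts. The late limb group was higher than Control-NSC by 0.75 ± 0.14 (adjusted p = 0.0034) and higher than elpNSCs-early by 0.63 ± 0.14 (adjusted p = 0.0080). Mylk, the myosin light chain kinase that triggers smooth muscle contraction, was lower in elpNSCs-late than in Control-NSC, by -1.05 ± 0.17 (adjusted p = 0.00096), with 5.19 and 5.17 against 6.06 and 6.40. Fhl1, a LIM protein of muscle and many other cells, was lower in elpNSCs-late than in Control-NSC (-1.06 ± 0.14, adjusted p = 0.00020) and than in alpNSCs-late (-2.29 ± 0.14, adjusted p = 2.2e-07). The apparatus genes detected on both arrays of elpNSCs-late numbered 12 of 24 with a probe, against 11 in Control-NSC and 15 in Fibroblasts.

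Among 15 relatives of the members in the actin, tropomyosin and myosin light chain families, 10 were tested. In elpNSCs-late 1 was higher and 1 lower than Control-NSC, with a median of -0.02, and in elpNSCs-early 0 were higher and 1 lower, with a median of -0.21. These counts lie near or below the 15.3% of all genes called late and 26.1% early. The lower gene was Tagln3, a neuronal relative of transgelin, at least 3.19-fold lower in elpNSCs-late (adjusted p = 2.3e-07). Its levels were 4.35 and 4.28 in elpNSCs-late, at background, against 6.53 and 6.26 in Control-NSC. Tagln3 was also called lower than Control-NSC in both lung groups, at background there too (means 4.62 in alpNSCs-late and 4.38 in alpNSCs-early). The higher gene was Actc1, the cardiac muscle actin. It was detected on both elpNSCs-late arrays, at 5.31 and 5.31, and on no array of any other group. It was at least 1.47-fold above Control-NSC (adjusted p = 0.0039) and at least 1.53-fold above elpNSCs-early (adjusted p = 0.00048). A second muscle actin was thus detected in the late limb group, at a level near background.

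The SRF and MRTF list held 26 symbols, 20 with a probe and 15 tested. Against Control-NSC, 4 were higher and 2 lower in elpNSCs-early (median 0.02), and 0 were higher and 2 lower in elpNSCs-late (median -0.08), beside 26.1% of all genes called early and 15.3% late. The lung line ran alike, with 4 higher and 2 lower in alpNSCs-early (18.2% of all genes called) and 1 higher and 2 lower in alpNSCs-late (12.4%). In both early groups the higher genes were Srf, Tgfb2, Ccn1 and Ccn2. Ccn1 averaged 8.14 in alpNSCs-early and 7.86 in elpNSCs-early, and Ccn2 8.34 and 7.80. Srf was at 8.85 and 8.99 in elpNSCs-late and 9.59 and 9.79 in elpNSCs-early, against 8.92 and 8.95 in Control-NSC. It was higher early (0.75 ± 0.11, adjusted p = 0.00042), and the late difference was -0.01 (adjusted p = 0.96). Ccn1 and Ccn2 are secreted matricellular proteins that respond to serum, SRF and YAP. Ccn1 was 8.52-fold higher than Control-NSC in elpNSCs-early (adjusted p = 7.1e-09) and 6.68-fold lower in elpNSCs-late than in elpNSCs-early (adjusted p = 7.8e-08). Ccn2 was not above background in elpNSCs-late, at least 8.48-fold lower than in elpNSCs-early (adjusted p = 1.3e-08), which itself lay 2.40-fold above Control-NSC (adjusted p = 1.3e-05). Both genes also fell from early to late in the lung line, where Ccn1 was at least 10.6-fold and Ccn2 8.64-fold lower late, and where Acta2 was at or near background at both stages. Tgfbr2, a TGFβ receptor, was 5.63-fold lower in elpNSCs-late (adjusted p = 1.4e-08) and 2.86-fold lower in elpNSCs-early (adjusted p = 1.3e-06) than in Control-NSC. It was called lower in both lung groups as well, with means of 7.01 in alpNSCs-late and 7.81 in alpNSCs-early against 9.20 in Control-NSC. Of the 15 tested, 0 were higher, 5 lower and 10 not called in elpNSCs-late against elpNSCs-early, where 23.8% of all genes were called. Srf, Ccn1, Ccn2 and Tgfbr2 were among the 5, while the Acta2 level was higher late. In the lung line the same 4 genes were lower late, where 4.83% of all genes were called. The part of these genes in the Acta2 level was not tested.

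**Figure D4:**
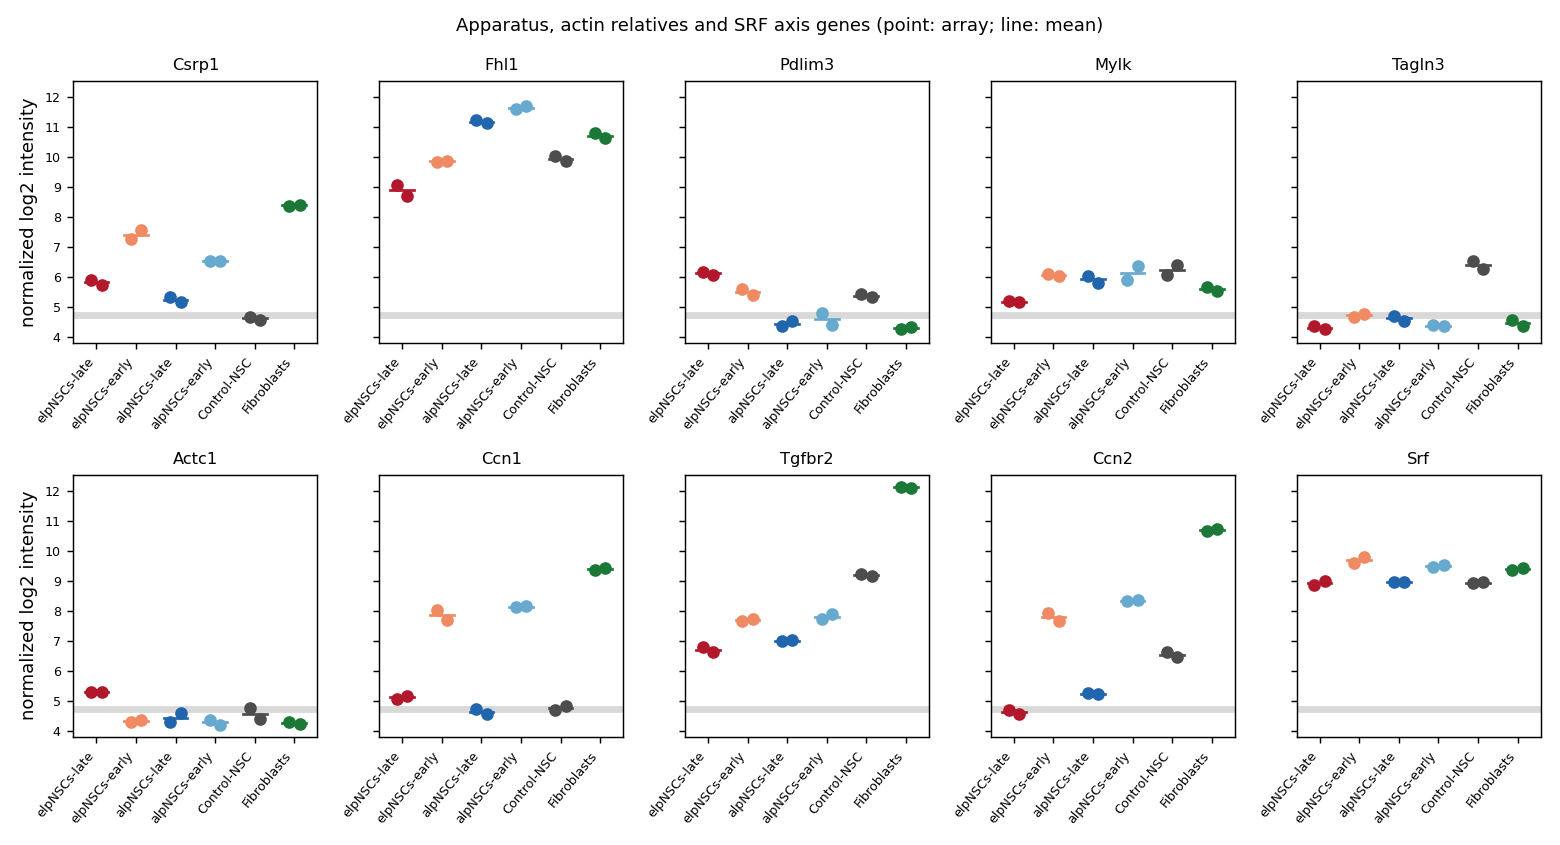
Normalized log2 intensity (vertical axis) of the 10 named genes of the apparatus, actin relative and SRF lists, on each array of the 6 groups. Points are arrays, lines are group means and the grey band is the lowest detected signal. Csrp1, Ccn1, Ccn2, Srf and Tgfbr2 are lower in elpNSCs-late than in elpNSCs-early, while Pdlim3 and Actc1 are higher in elpNSCs-late.

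Markers of cells that carry smooth muscle actin were set beside the Acta2 level. Of 10 fibroblast markers with a probe, elpNSCs-late detected 1 on both arrays (Pdgfra), elpNSCs-early 2 (Thy1 and Pdgfra), Control-NSC 2 and Fibroblasts 9. Their summed linear level was 263 to 309 in elpNSCs-late and 353 to 354 in elpNSCs-early, against 739 to 791 in Control-NSC and 48282 to 50522 in Fibroblasts. The collagens Col1a1, Col1a2 and Col3a1 and the proteoglycans Dcn and Lum were not above background on any limb array. Thy1 was at 7.05 and 6.95 in elpNSCs-early and at background in elpNSCs-late, against 9.05 and 9.19 in Control-NSC, and so was not above background in the limb group with the higher Acta2 level. Pdgfra, which oligodendrocyte precursors also express, went the other way, with 6.35 and 6.94 in elpNSCs-late and 5.71 and 5.62 in elpNSCs-early, against 5.54 and 5.61 in Control-NSC and 10.62 and 10.65 in Fibroblasts. It was higher in elpNSCs-late than in Control-NSC (1.08 ± 0.17, adjusted p = 0.00079) and than in elpNSCs-early (0.98 ± 0.17, adjusted p = 0.0013), so it moved with Acta2 in the limb line. In the lung line, where Acta2 was at or near background, Pdgfra was also higher late (1.53 ± 0.17, adjusted p = 0.00015). Its part in the Acta2 level was not tested. Of 10 pericyte and mural markers, 4 were detected on both elpNSCs-late arrays and 3 on both elpNSCs-early arrays, against 3 in Control-NSC and 6 in Fibroblasts. The 4 of elpNSCs-late (Mcam, Notch3, Kcnj8 and Cspg4) were also those detected on both arrays of alpNSCs-late and of alpNSCs-early. Summed levels were 390 to 411 in elpNSCs-late, 363 to 445 in elpNSCs-early, 301 to 317 in alpNSCs-late and 310 to 325 in alpNSCs-early. They were 318 to 319 in Control-NSC and 508 to 532 in Fibroblasts. Pdgfrb, Rgs5, Anpep, Des and Vtn were not above background on any limb array, and Abcc9 was on 1 elpNSCs-early array. Of the 7 tested, 2 (Notch3 and Cspg4) were higher and 0 lower in elpNSCs-late than in alpNSCs-late, where 10.9% of all genes were called. In elpNSCs-early against alpNSCs-early 1 (Cspg4) was higher and 0 lower, where 12.5% were called. Cspg4, which oligodendrocyte precursors also express, was higher than Control-NSC in elpNSCs-late (0.85 ± 0.14, adjusted p = 0.0010) and in elpNSCs-early (0.80 ± 0.14, adjusted p = 0.0011), and Notch3 in elpNSCs-early (0.58 ± 0.19, adjusted p = 0.039). The part of these genes' cells in the Acta2 level was not tested.

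Of 12 skeletal and cardiac muscle markers with a probe, 2 were detected on both arrays of each limb group. Myh8, the perinatal skeletal myosin heavy chain, was at 8.92 and 8.84 in elpNSCs-late and 9.48 and 9.55 in elpNSCs-early, against 5.88 and 5.98 in Control-NSC, and at background in Fibroblasts. It was 7.72-fold higher than Control-NSC late (adjusted p = 1.9e-09) and 12.0-fold higher early (adjusted p = 5.4e-10). Of the 5 tested genes of the list, Myh8 alone was called against Control-NSC and 4 were not, in either limb group. The median difference of the 5 was -0.02 late and -0.03 early, where 15.3% of all genes were called late and 26.1% early. The summed level of the list, Myh8 included, was 700 to 722 in elpNSCs-late and 964 to 983 in elpNSCs-early, against 300 to 306 in Control-NSC. Control-NSC likewise detected 2 of the 12 on both arrays, Myog and Myh8, as did elpNSCs-late. In elpNSCs-early the 2 were Tnnt1 and Myh8. Tnnt1, at 5.20 and 4.78 there, was detected on both arrays of no other neural stem cell group and on both Fibroblasts arrays. Myod1 was detected on 1 elpNSCs-late array. Of 6 endothelial markers, 0 were detected on both arrays of a limb group and 2 (Pecam1 and Tek) on 1 elpNSCs-late array each, and all 8 neural stem cell markers with a probe, among them Sox2, Olig2 and Nes, were detected on both arrays of every neural stem cell group.

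The genes whose profile over the 12 arrays was most like that of Acta2, by the root mean square difference of levels centred on each gene's mean, were Col6a1 (0.85), Nrn1 (1.15), Timp3 (1.24), Igfbp7 (1.25) and Ccl2 (1.26). Col6a1 encodes a collagen VI chain and averaged 7.90 ± 0.037 in elpNSCs-late and 7.65 ± 0.17 in elpNSCs-early, with Control-NSC at background and Fibroblasts at 12.35 ± 0.048. Nrn1, neuritin, averaged 9.72 ± 0.18 in elpNSCs-late and 8.48 ± 0.27 in elpNSCs-early, against 5.78 ± 0.19 in Control-NSC and 10.52 ± 0.0036 in Fibroblasts. Timp3, a metalloproteinase inhibitor, and Igfbp7, an insulin-like growth factor binding protein, had in common with Acta2 a low lung level but were at 8.80 ± 0.22 and 8.98 ± 0.077 in Control-NSC. Among 10143 genes ranked by this distance, the members stood at 103 (Tpm2), 440 (Tpm1), 536 (Cnn2), 751 (Actg2), 1455 (Tagln) and 5982 (Cnn3), with the Fibroblasts arrays included. Over the 10 neural stem cell arrays alone, a comparison added after seeing the data, the nearest were Nrn1 (0.72), Myh8 (0.80), Tmem35a (0.81), Elavl4 (0.85) and Arhgef3 (0.90). No member was among them, but Actg2, Tagln and Tpm2 were at background on all 10 arrays and could not have been. The members were not ranked in this comparison.

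**Figure D5:**
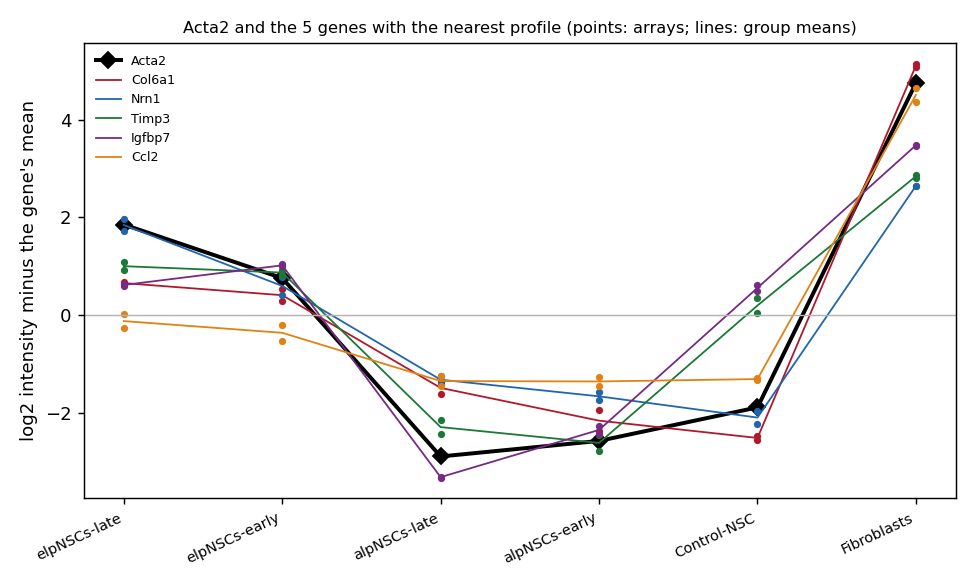
Log2 intensity minus each gene's own mean over the 12 arrays (vertical axis) for Acta2, with black diamonds at group means, and the 5 genes of nearest profile, with points for arrays and lines through group means. Nrn1 follows Acta2 through the limb groups (9.72 in elpNSCs-late, 8.48 in elpNSCs-early) and Col6a1 has the smallest overall distance (0.85).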

How the data were processed

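RNA from 12 samples was hybridized to single-colour Illumina mouse bead arrays. The deposited raw table holds 1 linear intensity per probe and array, not normalized by the authors, whose notes name BeadStudio 3.2. The deposited detection p-values stand beside it. The authors' own normalized log2 values were deposited separately, made with RMA background correction and lumi per the submitters' processing notes, and served as an alternative.

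Raw intensities were corrected and quantile-normalized with neqc (offset 16, with the background estimated through the detection p-values) in limma 3.58.1 under R 4.3.3. Probes with a detection p-value under 0.05 on at least 2 arrays were kept (14869 of 25697). The platform annotation named 23978 probes, and 10144 genes were tested, each by its probe of highest mean. On each array 45.9 to 50.0% of probes were detected, and raw medians were 98.1 to 115.7. The number of arrays limits the precision. One limma model over all 12 arrays (6 residual and 5.82 prior degrees of freedom) gave 14 comparisons with Benjamini-Hochberg adjustment over all genes. A group with no array above background gives only a bound (at least N-fold): each of its arrays enters at its own value or, if larger, at the weakest signal detected on that array. Replicates correlated at 0.990 to 0.996 and shared 0.292 to 0.638% of raw values exactly, so all 12 were kept as separate samples.

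The members and gene lists were chosen with earlier results of these data known. The rule named, per apparatus, actin and SRF list, up to 4 genes called in a limb comparison with the smallest p, and the 5 nearest profiles to Acta2. Other marker genes were named after their values were seen. Promoters came from a RefSeq table (GRCm38.p6), and no protein sequence was used here. The fit was tested on simulated arrays. Alternatives changed the source of the values (the authors' log2 table), the offset (50), the background step (none), the scaling (to the median), the detection filter (none or stricter), the probe rule (mean over probes), the prior (robust, with a trend), the block (replicate number), the arrays in the fit (those compared, or all but 1) and the call (2-fold or more), and nearest profiles without Fibroblasts, the last added after seeing the data.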

Additional observations from a re-analysis of the deposited data

Results flagged for a closer look

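Among the members, the named list genes and the marker lists, 7 genes were flagged for a late minus early change unlike between the limb and lung lines. Acta2 was flagged on its values alone and the others on the test, which 5.66% of all genes passed. The difference is given here as the limb change minus the lung change on the log2 scale. For Acta2 it was 1.41. Both late limb arrays lay above both early ones, and both late lung arrays lay below both early ones, but 3 of the 4 lung arrays were at background and the difference was not tested.

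For the other genes the difference was tested in the limma model. Pdlim3 gave 0.78 (adjusted p = 0.046), Actc1 0.83 (adjusted p = 0.037) and Ccn1 0.76 (adjusted p = 0.033), which was lower late in both lines and by less in the limb line. Of the marker genes, Thy1 gave -2.68 (adjusted p = 1.4e-06), Myh8 -0.77 (adjusted p = 0.012) and the neuronal gene Rbfox3 1.03 (adjusted p = 0.012). Thy1, Rbfox3 and Actc1 were above background on no lung array, and Pdlim3 only on 1 alpNSCs-early array. For these genes the test sets the limb change against lung background, where a fall could not show. Ccn1 was at background in alpNSCs-late, so its lung fall is a bound. Groups of 2 arrays were too small to look for single arrays that stand apart.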

How the results depend on the processing

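Acta2 kept its sign in all 14 comparisons under the 23 alternatives tried (0 of 322 values changed sign). Many of these values could not change, so the count carries little weight. The prior, the block, the detection filters, the call and the arrays outside a comparison leave the Acta2 difference as it was. The Cnn2 calls against Control-NSC did not hold under many. For elpNSCs-early against Control-NSC, 0 members were called with the deposited log2 values, an offset of 50, no background correction, no detection filter, the mean over probes, only the arrays compared, or a fold of at least 2, and 0 to 1 with each array left out. For alpNSCs-early against Control-NSC, 0 members were called with the deposited log2 values, an offset of 50, no background correction, no detection filter, the robust prior with a trend, the replicate block (Cnn2 adjusted p = 0.056), or a fold of at least 2, and again 0 to 1 with each array left out. The deposited log2 values called 1 member for elpNSCs-late against Control-NSC (Tagln, 0.94, adjusted p = 0.027) and 1 for elpNSCs-late against elpNSCs-early (Tagln, 0.78, adjusted p = 0.042), on a probe above background on no limb array. The cause was not tested. Against Fibroblasts 4 to 6 members were called, 4 where Tagln missed a fold of 2, and 6 where Cnn3 was higher in alpNSCs-early with the replicate block (0.43, adjusted p = 0.021) or without alpNSCs-early replicate 2 (0.71, adjusted p = 0.045). The replicate block changed no other member call. Replicate numbers did not pair the samples, with correlations of deviations between -0.150 and 0.240 over 15 pairs of groups.

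The Acta2 difference from Control-NSC ran from 1.76 (mean over probes) to 4.36 (deposited log2 values) in elpNSCs-late and from 1.07 to 3.21 in elpNSCs-early, and that of elpNSCs-late from elpNSCs-early ran from 0.69 to 1.40. With median scaling the median of all genes was 0.15 for elpNSCs-late minus elpNSCs-early, against which the Acta2 difference was 1.40. The nearest profile to Acta2 lay at 0.72 on the neural stem cell arrays alone and at 0.85 on all 12.

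Counts over all genes moved by more than 1.5 times as follows. With only the arrays compared, 1729 in place of 2644 genes were called for elpNSCs-early against Control-NSC, 580 in place of 1267 for elpNSCs-early against alpNSCs-early, 944 in place of 2413 for elpNSCs-late against elpNSCs-early, and 290 in place of 574 for the difference of the changes between lines, which was 328 with the deposited values. A fold of at least 2 left 445 of 1553 (elpNSCs-late) and 655 of 2644 (elpNSCs-early) against Control-NSC, 394 of 1258 (alpNSCs-late) and 541 of 1842 (alpNSCs-early) against Control-NSC, 327 of 1106 and 342 of 1267 for limb against lung late and early, 453 of 2413 and 132 of 490 for late against early in limb and lung, and 268 of 574 for the difference of the changes. Against Fibroblasts it left 3091 of 6395 (elpNSCs-late), 2701 of 5993 (elpNSCs-early), 2988 of 6296 (alpNSCs-late), 2830 of 6145 (alpNSCs-early) and 3022 of 6278 (Control-NSC). Leaving out an array moved such a count by that much in 20 fits over 8 comparisons. Signals of Actg2, Tagln and Cnn1 near background limit what the limb arrays could show of them.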
